A study of Mus musculus with 14 samples.

Results

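This account follows 37 interferon-stimulated genes of the mouse, chosen by symbol from a list, among the 24980 genes measured in sorted bone marrow cells. All 37 were found by their symbol in both of the study's tables. They were sorted by what their products do into 15 antiviral genes (the Ifit, Oas, Oasl and Mx families with Isg15, Isg20, Rsad2 and Cmpk2), 7 GTPases of the Gbp and Irg families, 5 genes of interferon signalling (Irf1, Irf7, Irf9, Stat2 and Usp18), 3 sensors of foreign nucleic acid (Ddx58, Ifih1 and Zbp1) and 7 others (Rtp4, Ifi44, Ifi35, Trim30a, Xaf1, Parp14 and Phf11d). The members sit in several gene clusters, so that they are not independent of their neighbours. Ifit2, Ifit3, Ifit3b and Ifit1 lie on chromosome 19 between 34550694 and 34650010 (mm10), Gbp5, Gbp7, Gbp3 and Gbp2 on chromosome 3 between 142496934 and 142638009, Oas2, Oas3 and Oas1a on chromosome 5 between 120730333 and 120907526, and Rsad2 and Cmpk2 on chromosome 12 between 26442743 and 26479838.

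Bulk RNA sequencing was made of 14 libraries from Cx3Cr1gfp/+ mice, which carry a GFP reporter in a single copy of Cx3cr1 in every group, although the series text calls the mice wildtype. Dendritic cells were gated as CX3CR1-GFPhigh, MHCIIhigh, CD11chigh, Gr-1- and B220-. There were 4 libraries of them after vehicle and 4 after PAM3CSK4, a lipopeptide agonist of the receptor pair TLR1/2 that was given once. Monocytes (CX3CR1-GFPhigh, CD115+, B220-, with Gr1-low and Gr1-high cells together) and macrophages (CD169+ and MHCIIhigh, negative for CX3CR1-GFP, Gr-1 and B220) were taken at baseline, with 3 libraries each. Dose, time after the dose, age and sex are not given in the labels, nor whether each library stands for another mouse, so the p-values reflect the spread among libraries, part of which may be technical. Values are CPM, reads or fragments of a gene scaled to a common library total, and 1 CPM equalled 28.2 to 75.2 steps, a step being the smallest spacing between low values in a library. Changes were taken as differences in log2(CPM + 1), which understates those of genes with low values.

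The summed level of 14 conventional dendritic cell markers was 13100 to 16300 CPM with vehicle, and 6480, 6180, 7450 and 999 CPM in PAM3CSK4 replicates 1 to 4. Most of the sum was Cd74 and 3 MHC class II genes. At an adjusted p under 0.05 (limma) 0 of the 14 were higher and 3 lower, namely Zbtb46, Cd209a and Clec10a (2.82% and 2.29% of all genes). Itgax overlapped between the groups, as did Ccr7, which had a log2 change of 1.37 ± 0.62 (SE, adjusted p = 0.19). Cd74, H2-Ab1, H2-Aa, H2-Eb1 and Clec9a lay below all vehicle libraries in every PAM3CSK4 library but did not pass (adjusted p from 0.056 to 0.099). Replicate 4 of PAM3CSK4 stood apart, with 11500 CPM summed over 13 neutrophil markers, against 417 to 826 CPM with vehicle and 515, 1560 and 935 CPM in PAM3CSK4 replicates 1, 2 and 3. Several of the results are therefore also given without it. The macrophage libraries held 583 to 8620 CPM summed over 10 B and plasma cell markers (monocytes 113 to 131 CPM) and 139 to 393 CPM over 13 T and NK cell markers (monocytes 10.9 to 25.1 CPM), and Csf1r, which encodes the CSF1 receptor CD115 of monocytes and macrophages, was at 33.6, 24.9 and 52.9 CPM in them. The 13 macrophage markers summed to 347 to 534 CPM there, which overlaps the 157 to 517 CPM of monocytes. Taken singly, 5 of these 13 were called higher and 1 lower in macrophages than in monocytes (12.8% and 7.42% of all genes). Of 12 monocyte markers 0 were called higher and 10 lower in macrophages.

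Interferons are secreted proteins that cells release on sensing infection. Type I interferons bind the receptor IFNAR and activate a complex that holds STAT2 and IRF9 and binds the interferon-stimulated response element (ISRE) in front of antiviral genes, while interferon gamma binds IFNGR and acts through the gamma-activated site (GAS). IRF1 and IRF7 extend the response, and USP18 restrains it. The antiviral products block steps of viral replication, and the Gbp and Irg GTPases are large interferon-inducible proteins that attack the vacuoles of intracellular microbes. TLR1/2 is a surface receptor that signals through MyD88 and is known chiefly for driving inflammatory genes.

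Promoters are shown because the ISRE was found in many genes of the antiviral and GTPase classes. Whether it has a part in the values below was not tested. The letters searched were a pair of GAAA units with any 2 bases between them for the ISRE core and TTCNNNGAA for the GAS, on both strands, in RefSeq windows (GRCm38.p6) from 250 bases before to 50 bases after a gene's start. Of the 37 members 30 were in the promoter table, and Mx1, Mx2, Oas2, Parp14, Rtp4, Usp18 and Zbp1 were not matched. The ISRE core was found in 17 of the 30 members (56.7%) and in 3.99% of the 27025 genes of the table, and the GAS in 8 of 30 (26.7%) and in 9.55%. By class the ISRE core was in 7 of 12 antiviral genes, 6 of 7 GTPases, 1 of 4 signalling genes, 2 of 2 sensors and 1 of 5 others. In both sensors it lay after the start (bases 33 to 42 in Ifih1, 3 to 12 in Ddx58), and 15 members held a match before the start. The 30 members had 37 windows, and in 26 the first 25 transcribed bases were in a GENCODE M21 transcript of the gene. None of the 26 ISRE matches overlapped a GAS match.

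The 200 bases before the start of Oas1a (chr5:120907526-120907725, minus strand), the antiviral member with the highest level per length with vehicle among those holding a match, of Igtp (chr11:58199356-58199555, plus strand), the GTPase with the highest such level among those holding a match, and of Ifit3b (chr19:34607757-34607956, plus strand), among the members with the lowest p in dendritic cells, read as follows on the gene's strand. Capitals mark matches to the ISRE core, and a pair of TTTC units is the same core on the opposite strand.
Oas1a: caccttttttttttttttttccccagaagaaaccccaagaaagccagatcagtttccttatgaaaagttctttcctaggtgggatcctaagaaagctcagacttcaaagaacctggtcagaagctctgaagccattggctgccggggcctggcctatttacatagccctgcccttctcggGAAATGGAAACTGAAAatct
Igtp: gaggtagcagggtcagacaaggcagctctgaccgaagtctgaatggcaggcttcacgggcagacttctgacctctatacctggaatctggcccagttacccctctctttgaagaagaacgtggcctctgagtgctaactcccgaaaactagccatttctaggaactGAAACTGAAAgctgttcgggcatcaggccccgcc
Ifit3b: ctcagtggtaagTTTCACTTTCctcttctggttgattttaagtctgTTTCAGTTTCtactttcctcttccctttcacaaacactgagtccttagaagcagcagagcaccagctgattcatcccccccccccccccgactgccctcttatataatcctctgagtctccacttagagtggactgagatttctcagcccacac

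Shorter stretches around the match are given for Oas3 (chr5:120777719-120777740, minus strand), another of the members with the lowest p, and for the 4 members of the Gbp cluster (plus strand). They lie at chr3:142496763-142496784 for Gbp5, chr3:142530277-142530298 for Gbp7, chr3:142559993-142560020 for Gbp3 and chr3:142620598-142620619 for Gbp2, the last within an exon annotated for Gbp2 in GENCODE M21.
Oas3: ggaggaGAAAACGAAAgtgaag
Gbp5: gtgtagTTTCAATTTCagttta
Gbp7: gtgcagTTTCAGTTTCagttct
Gbp3: acacagTTTCAGTTTCTATTTCccagat
Gbp2: ttttagTTTCACTTTCactgtc

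With vehicle, dendritic cells held RNA of all 37 members in at least 1 library. Per kilobase of exon, the members with the highest mean level were Parp14 (14.1 CPM per kilobase), an ADP-ribosyltransferase, and the transcription factors Irf1 (14.1) and Stat2 (13.3). Oas1a (11.2) was the highest antiviral gene, Ifi47 (6.84) and Igtp (6.79) the highest GTPases, and Gbp5 (0.899) and Isg20 (0.709) the lowest members of their classes. Ifi44 was near the bottom of the range at 0.0001, 1.53, 0.945 and 0.385 CPM with vehicle and 0.189, 0.461, 1.26 and 0.674 CPM with PAM3CSK4, and did not reach the filter of 1 CPM in 4 libraries. The other 36 members did.

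After PAM3CSK4 no member passed the threshold in dendritic cells. Of the 36 tested, 0 were higher and 0 lower at an adjusted p under 0.05 (limma), where 2.82% of the 11377 genes tested were higher and 2.29% lower. At an unadjusted p under 0.05, 1 member was higher (17.9% of all genes) and 7 were lower (7.06% of all genes). The log2 change was above 0 in 12 members and below 0 in 24, with a median of −0.24, while 7655 of the 11377 genes were above 0 and the median of all genes was 0.20. Without PAM3CSK4 replicate 4, 16 members were above 0 and 20 below, with a median of −0.08, and 2 were higher and 4 lower at an unadjusted p under 0.05. With any 1 library left out the median lay between −0.42 (without PAM3CSK4 replicate 2) and −0.08, and the members at an unadjusted p under 0.05 numbered 0 to 6 higher (6 without PAM3CSK4 replicate 1) and 3 to 10 lower (3 without vehicle replicate 2 or 4, 10 without PAM3CSK4 replicate 2 or 3). No member lay above the vehicle libraries in every PAM3CSK4 library (10.1% of all genes did), and 3 members, Ifit3, Ifit3b and Mx1, lay below them in every one (4.68%). In bulk RNA, fewer cells of a type and less RNA per cell cannot be told apart.

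**Figure D1:**
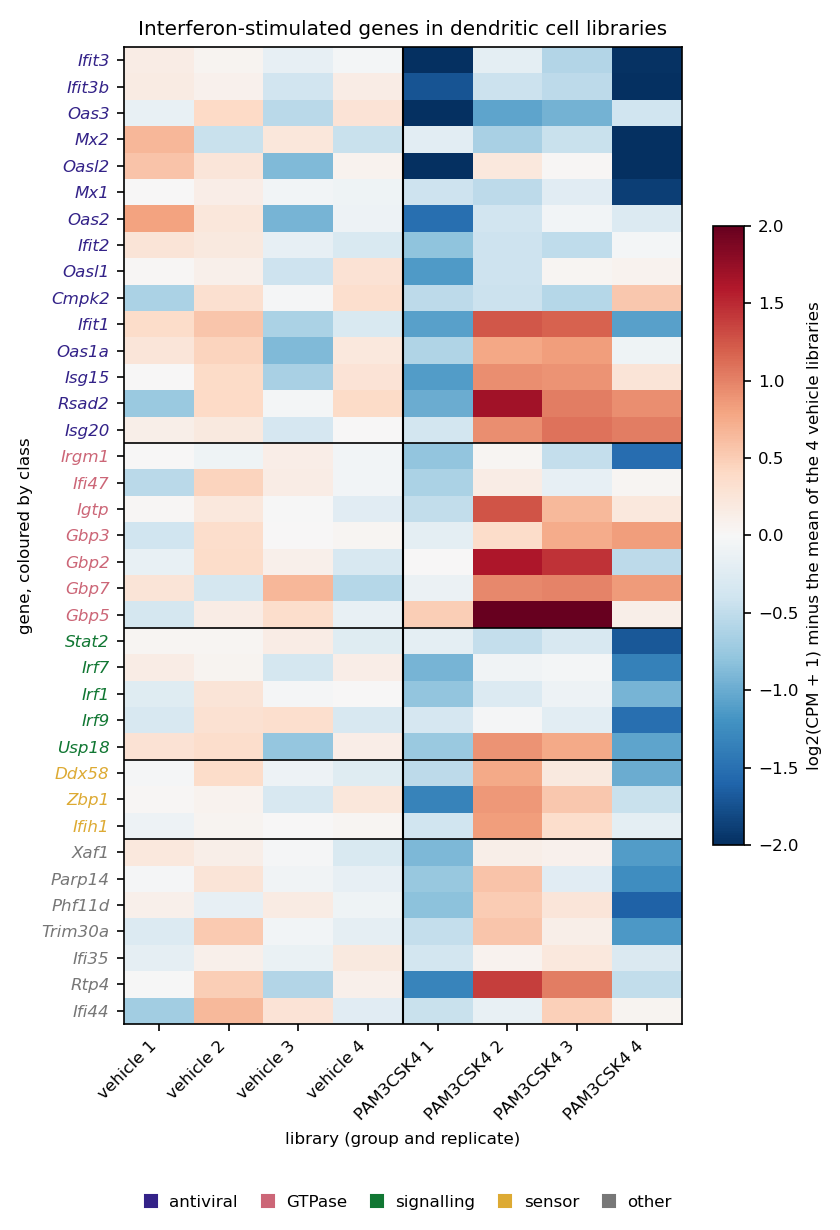
Level of each of the 37 genes (rows, coloured by class) in each dendritic cell library (columns) as the difference in log2(CPM + 1) from the mean of the 4 vehicle libraries, with colours capped at 2 in either direction. Blue is concentrated in PAM3CSK4 replicates 1 and 4, and red in replicates 2 and 3.

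The antiviral class had a median log2 change of −0.44, with 5 of its 15 members above 0 and 10 below. Ifit3 (chromosome 19, 34583529 to 34588983), which binds viral RNA together with other Ifit proteins, was at 18.4, 17.2, 14.5 and 15.9 CPM with vehicle and 2.5, 14.3, 10.6 and 3.45 CPM with PAM3CSK4. The lowest vehicle library thus lay just above the highest PAM3CSK4 library. Its log2 change was −1.27 ± 0.42 (SE, adjusted p = 0.095), and the near-identical neighbour Ifit3b (4.61, 4.33, 2.84 and 4.59 against 0.514, 2.74, 2.49 and 0.194 CPM) had −1.19 ± 0.37 (adjusted p = 0.083). Reads that fit both copies could have gone to either, so the pair is uncertain as separate genes.

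Oas3 (chromosome 5, 120753098 to 120777660), whose product makes the oligoadenylates that activate RNase L, was at 26.0, 38.5, 19.7 and 35.3 CPM with vehicle and 5.85, 13.4, 14.6 and 21.8 CPM with PAM3CSK4. Its groups overlapped by the highest PAM3CSK4 library, replicate 4, and the lowest vehicle library. The log2 change of Oas3 was −1.13 ± 0.35 (SE, adjusted p = 0.082), and it passed without PAM3CSK4 replicate 4 (−1.37, adjusted p = 0.020). Over all 16 alternatives its adjusted p ran from 0.020 to 0.19. Mx1 (chromosome 16, 97447035 to 97462907), a dynamin-like protein that traps viral nucleoproteins, was at 27.1, 29.6, 25.8 and 25.4 CPM with vehicle and 19.9, 18.4, 22.9 and 6.61 CPM with PAM3CSK4. Vehicle libraries of Mx1 lay close together, and replicate 4 was well below the rest. Its change was −0.76 ± 0.32 (adjusted p = 0.17), and −0.39 (adjusted p = 0.31) without that replicate.

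Other antiviral genes went up in some PAM3CSK4 libraries and down in others. Rsad2, which encodes the antiviral enzyme viperin, was at 4.60, 11.3, 8.10 and 11.2 CPM with vehicle and 3.71, 28.8, 18.1 and 16.9 CPM with PAM3CSK4. Isg15, a ubiquitin-like protein joined to other proteins, was at 3.03, 4.25, 1.56 and 3.86 CPM and 0.852, 6.70, 6.51 and 3.81 CPM, and the viral RNA binder Ifit1 at 5.26, 6.12, 2.11 and 2.92 CPM and 1.28, 10.4, 9.93 and 1.27 CPM. In each of these 3 genes replicate 2 was the highest PAM3CSK4 library, and replicate 1 or 4 lay below all 4 vehicle libraries. Their log2 changes were 0.66 ± 0.49, 0.24 ± 0.43 and 0.06 ± 0.55 (SE), and that of Ifit1 turned negative when libraries were rescaled to a common total, centred on their median or quantile normalized.

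Of the Oas genes, Oas1a (23.6, 27.4, 10.3 and 23.1 against 12.7, 34.7, 36.3 and 18.6 CPM) had a log2 change of 0.23 ± 0.37, which turned negative with quantile normalization. Oas2 (28.4, 18.8, 7.87 and 14.7 against 4.93, 11.9, 15.2 and 12.9 CPM) had −0.56 ± 0.39. The groups of both genes overlapped. The RNA exonuclease gene Isg20 (1.49, 1.64, 0.822 and 1.32 against 0.788, 3.36, 3.89 and 3.68 CPM) was high in replicates 2, 3 and 4 of PAM3CSK4 and below the vehicle range in replicate 1. Its change was 0.67 ± 0.33 (adjusted p = 0.23), and without replicate 1 of PAM3CSK4 Isg20 (1.01, adjusted p = 0.034) and Rsad2 (1.21, adjusted p = 0.041) passed. Mx2 (10, 4.11, 7.18 and 4.09 against 5.01, 3.45, 4.10 and 0.141 CPM) had −0.98 ± 0.48, and Cmpk2, a mitochondrial nucleotide kinase gene next to Rsad2, −0.25 ± 0.31 (8.12, 16.7, 12.9 and 16.8 against 8.83, 9.46, 8.55 and 19.5 CPM). Ifit2, Oasl1 and Oasl2 had changes of −0.44, −0.36 and −0.97 with overlapping groups.

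The GTPase class had a median log2 change of 0.44, with 5 of 7 members above 0. Gbp5 (chromosome 3, 142496934 to 142522345), a guanylate-binding protein that also promotes inflammasome activation, was at 4.36, 6.59, 7.77 and 5.15 CPM with vehicle and 8.66, 26.1, 27.5 and 6.39 CPM with PAM3CSK4. Replicates 1, 2 and 3 lay above every vehicle library, and replicate 4 lay among them. The log2 change was 1.16 ± 0.42 (SE, adjusted p = 0.12), and 1.52 (adjusted p = 0.020) without replicate 4. Gbp2 (chromosome 3, 142620663 to 142638009) was at 12.1, 17.9, 14.6 and 10.7 CPM with vehicle and 13.7, 43.6, 38.9 and 9.17 CPM with PAM3CSK4, so that replicates 2 and 3 lay above every vehicle library and the other two did not. Its log2 change was 0.64 ± 0.43 (adjusted p = 0.37).

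Among the remaining GTPases, Igtp (chromosome 11, 58199556 to 58207593), a regulator of the other Irg proteins, was at 13.9, 16, 13.5 and 11.5 CPM with vehicle and 9.46, 33.9, 22.0 and 15.9 CPM with PAM3CSK4 (log2 change 0.41 ± 0.33). Irgm1 (chromosome 11, 48865245 to 48871421), another regulatory Irg protein needed for defence against intracellular bacteria, went the other way at 32.9, 31, 36.2 and 31.4 CPM and 18.6, 33.8, 23.4 and 10.7 CPM (−0.69 ± 0.30, adjusted p = 0.18). The vehicle values of Irgm1 lay within a narrow range, and 3 of the 4 PAM3CSK4 libraries were under it. Gbp7 (9.15, 5.6, 12.4 and 4.70 against 6.82, 15.4, 15.8 and 14.3 CPM) had 0.67 ± 0.33, Gbp3 (4.59, 8.43, 6.46 and 6.64 against 5.48, 8.60, 11.4 and 12.2 CPM) 0.44 ± 0.28, and Ifi47 (11, 22.8, 18.2 and 15.7 against 10.2, 18.2, 14.5 and 16.9 CPM) −0.15 ± 0.27. None of these passed. Over all 16 alternatives the antiviral median lay between −0.66 and −0.24 and the GTPase median between 0.22 and 0.70; without PAM3CSK4 replicate 4 they were −0.51 and 0.47. The difference between the classes was not tested.

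All 5 signalling genes had a log2 change below 0, with a median of −0.52. Stat2 (chromosome 10, 128270498 to 128292854), the STAT of type I interferon signalling, was at 81.0, 80.9, 87.0 and 66.3 CPM with vehicle and 68.2, 55.9, 62.5 and 23.6 CPM with PAM3CSK4. Only replicate 1 reached into the vehicle range. The change of Stat2 was −0.67 ± 0.31 (adjusted p = 0.20) and −0.33 without replicate 4. Irf1, induced strongly by interferon gamma, was at 47.1, 66.9, 54.9 and 55.8 CPM and 31.8, 46.2, 51.9 and 28.9 CPM (−0.52 ± 0.24, adjusted p = 0.20). Irf7, the factor that amplifies type I interferon, was at 25, 23.2, 17.4 and 24.7 CPM and 11.2, 21.2, 21.7 and 8.14 CPM (−0.60 ± 0.31). Usp18, which removes ISG15 and dampens the receptor, was at 15.3, 15.9, 6.77 and 13.6 CPM and 6.93, 23.7, 21.6 and 5.39 CPM (−0.04 ± 0.44). In Irf7 and Usp18 replicates 1 and 4 were the low PAM3CSK4 libraries, and Irf9 had −0.52 ± 0.32. Over the 16 alternatives, which include leaving out replicate 4, Irf1 ran from −0.74 to −0.39 and Irf7 from −0.84 to −0.35. Irf9 ran from −0.75 to −0.19 and Usp18 from −0.34 to 0.31, with another sign in 6.

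The sensors and the other members stayed between −0.45 and 0.15 on the log2 scale. Ifih1, a sensor of long viral RNA, was at 30.0, 33.8, 32.5 and 33.2 CPM with vehicle and 24.2, 58.2, 41.5 and 28.1 CPM with PAM3CSK4. Zbp1, a sensor of Z-form nucleic acid, was at 10, 10.4, 7.68 and 11.6 CPM and 3.31, 18.8, 14.7 and 6.93 CPM. In both sensors 2 PAM3CSK4 libraries, replicates 2 and 3, lay above all vehicle libraries and the others lay below them. Ddx58, which encodes the sensor RIG-I, had a change of −0.14 ± 0.34. Parp14 was at 129, 156, 125 and 116 CPM and 76.8, 194, 112 and 54.4 CPM, and Xaf1, a promoter of cell death, at 8.69, 8.15, 7.28 and 5.80 CPM and 3.49, 8.08, 7.93 and 2.89 CPM. Ifi35, Trim30a, Phf11d and Rtp4 ranged from −0.42 to 0.15, and the signs of Rtp4 and Ifih1 turned negative with median centring and quantile normalization.

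**Figure D2:**
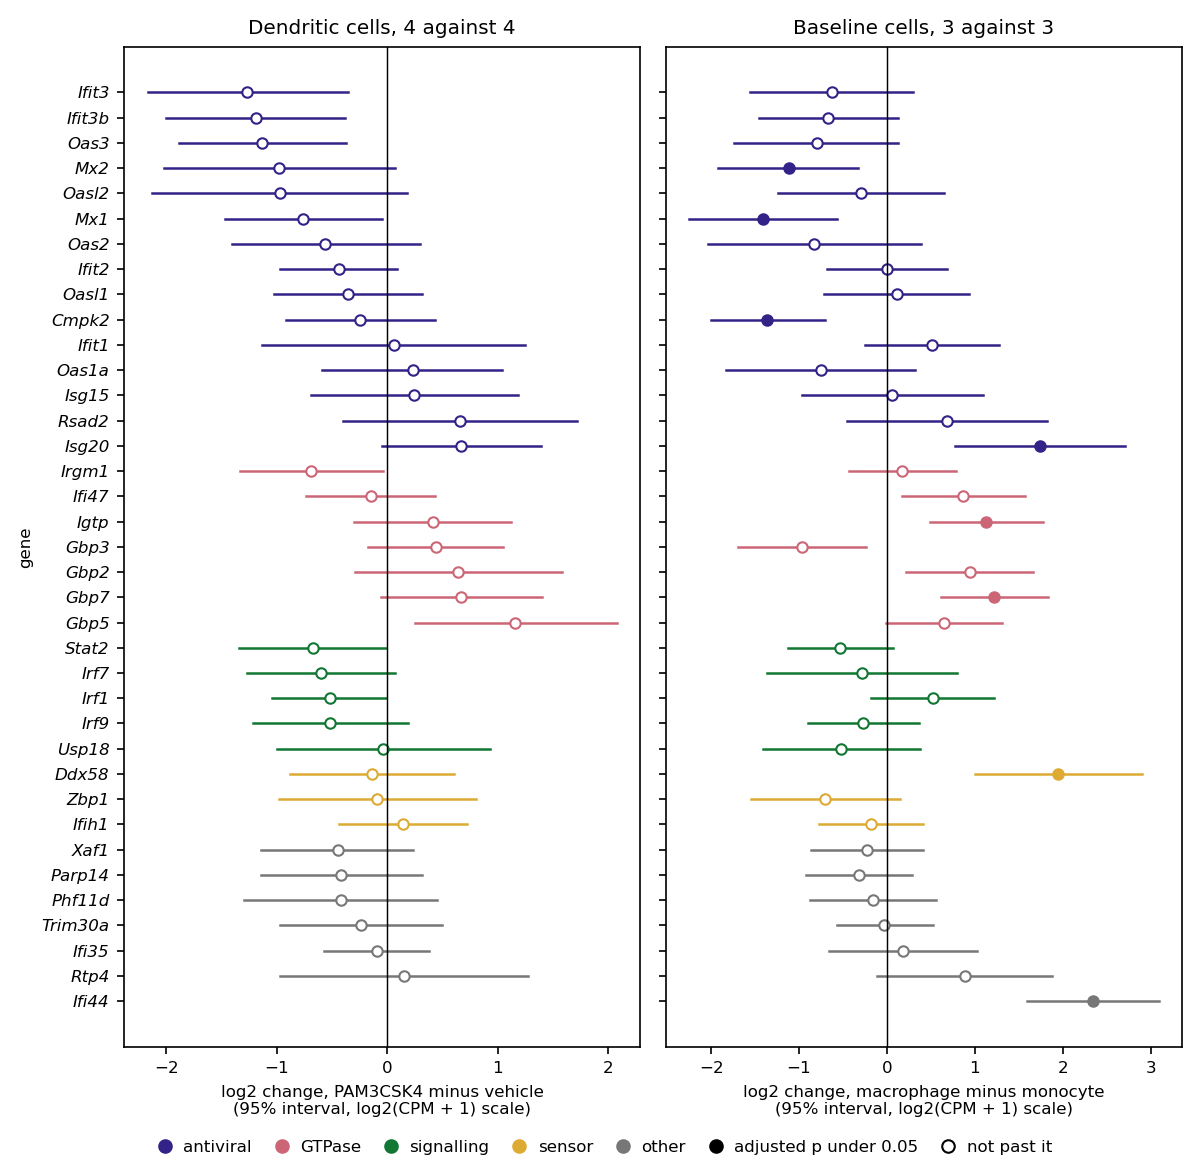
Log2 change of each gene with its 95% interval (limma, log2(CPM + 1) scale) for PAM3CSK4 minus vehicle in dendritic cells (left, 4 against 4 libraries) and for macrophages minus monocytes (right, 3 against 3), coloured by class, with filled points at an adjusted p under 0.05. No point is filled on the left and 8 are filled on the right.

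The spread among the PAM3CSK4 libraries was shared by many members. In replicate 1, 27 of the 36 tested members lay below all 4 vehicle libraries and 1 above them, against 17.2% and 23.4% of all genes. In replicate 4, 21 lay below and 5 above (22.5% and 42.1% of all genes). In replicate 2, 8 lay below and 18 above (16.5% and 39.9%), and in replicate 3, 8 below and 16 above (12.8% and 42.4%). Replicates 1 and 4 each held the lowest PAM3CSK4 value of 18 of the 37 members, and replicates 2 and 3 the highest of 20 and 10. The median difference of the members from the vehicle mean was −0.75, 0.29, 0.10 and −0.50 on the log2 scale in replicates 1 to 4.

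The classes did not share this pattern equally. In replicate 1 the antiviral genes were lowest (median −1.09) and the GTPases nearest to the vehicle mean (−0.19), and in replicate 4 the signalling genes were lowest (−1.35), all 5 of them below every vehicle library. The GTPases were above the vehicle mean by a median of 0.96 in replicate 2 and 0.75 in replicate 3. Steps per CPM, which follow depth, were 63.4, 28.2, 30.3 and 65.3 in PAM3CSK4 replicates 1 to 4, so there the libraries with low members had more steps per CPM. In vehicle replicates 1 to 4 they were 71.6, 37.9, 39.1 and 59.8. The median differences of the members from the vehicle mean were 0.02, 0.22, −0.07 and −0.05 in these vehicle libraries. The part of depth in the split of the PAM3CSK4 libraries was not tested. The neutrophil marker sum separated PAM3CSK4 replicate 4 from the others but was within the vehicle range in PAM3CSK4 replicate 1 (515 CPM). The 12 markers of plasmacytoid dendritic cells, a cell type known for making type I interferon, summed to 1020, 361, 1070 and 258 CPM in replicates 1 to 4. With vehicle they summed to 295 to 638 CPM. Much of the sum was Irf8 (476, 161, 420 and 149 CPM with PAM3CSK4), which was not called. Of the 11 plasmacytoid markers tested 5 were higher and 0 lower after PAM3CSK4 (2.82% and 2.29% of all genes). Ly6d among them was at 0.307, 0.950, 0.102 and 1.67 CPM with vehicle and 53.6, 14.1, 73.5 and 5.82 CPM with PAM3CSK4. The 13 macrophage markers summed to 504, 2730, 1090 and 468 CPM in replicates 1 to 4 and to 803 to 1360 CPM with vehicle. Much of the PAM3CSK4 sum was Hmox1 (178, 835, 314 and 168 CPM) and Adgre1 (104, 709, 228 and 65.3 CPM). The markers moved in opposite directions. Of the 12 macrophage markers tested 2 were higher after PAM3CSK4, Hmox1 and Spic, and 3 lower, Cd163, Mrc1 and Axl (2.82% and 2.29% of all genes). The 12 monocyte markers were also highest in replicate 2 (1140, 2110, 1260 and 1200 CPM, vehicle 1670 to 2480 CPM), and the 10 erythroid markers in replicate 4 (99.6, 396, 282 and 1190 CPM, vehicle 27.9 to 225 CPM). The part of any of these cells in the result was not tested.

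**Figure D3:**
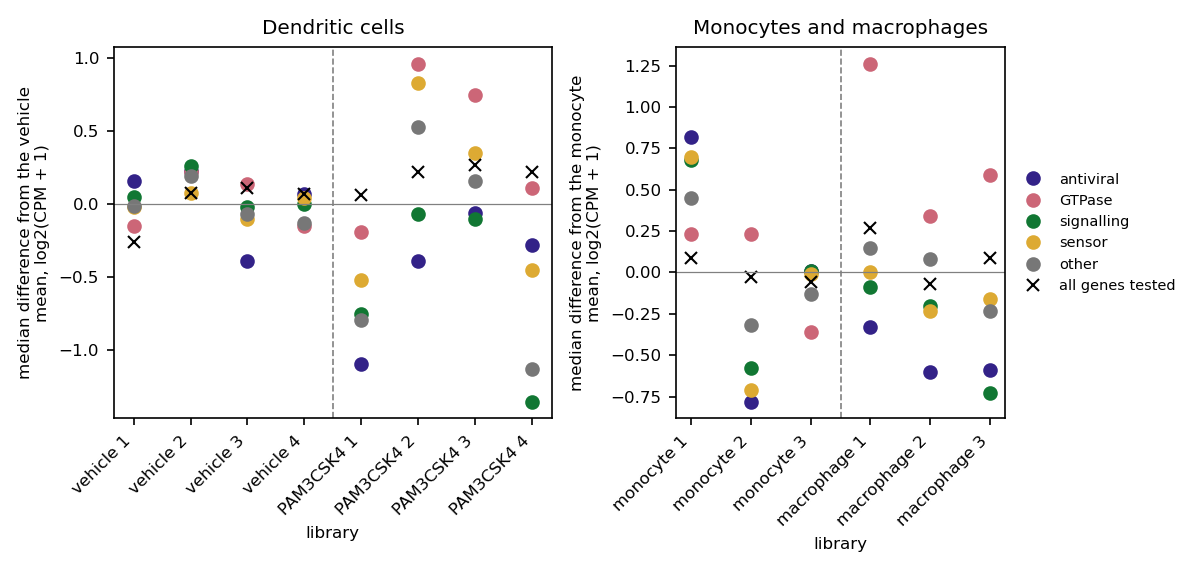
Median difference in log2(CPM + 1) of each class (points) and of all genes tested (crosses) from the vehicle mean in the dendritic cell libraries (left) and from the monocyte mean in the baseline libraries (right). The GTPases reach 0.96 in PAM3CSK4 replicate 2, and the antiviral genes range from −1.09 in PAM3CSK4 replicate 1 to 0.82 in monocyte replicate 1.

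Of 21 interferon genes in the dendritic cell table, Ifnb1 and every Ifna gene were at the table's lowest value, 0.0001, in all 8 libraries. Ifng, the gene of interferon gamma, was at 0.266, 0.0001, 0.869 and 0.201 CPM with vehicle and at 0.0001, 0.0710, 0.0001 and 0.0001 CPM with PAM3CSK4, which is too low to test. Ifnk was tested alone among the 21 and had a log2 change of −0.89 ± 0.31 (adjusted p = 0.11), in a place where Mob3b overlaps it on the opposite strand. Among the receptor genes Ifngr1, which encodes the ligand-binding chain for interferon gamma, fell from 174, 258, 280 and 268 CPM to 140, 138, 95.7 and 106 CPM. The 2 groups did not overlap, and the log2 change was −1.02 ± 0.23 (SE, adjusted p = 0.029). The chains Ifnar1 (0.09 ± 0.29), Ifnar2 (0.13 ± 0.23), Ifngr2 (−0.02 ± 0.24) and Il10rb (0.16 ± 0.31) did not pass, with 95% intervals within −0.55 and 0.82. Ifnlr1, the chain for interferon lambda, did not reach the filter and was at 0.237, 1.35 and 0.892 CPM in PAM3CSK4 replicates 1 to 3 but 13.4 CPM in replicate 4.

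In the chain from receptor to nucleus, 1 of 15 genes rose and 2 fell (2.82% and 2.29% of all genes). Socs3, an inhibitor of cytokine receptors, rose from 9.71, 8.99, 4.24 and 19.9 CPM to 34.0, 173, 166 and 55.0 CPM (log2 change 3.06 ± 0.53, adjusted p = 0.0089). The receptor kinase Tyk2 fell from 102, 94.5, 74.3 and 110 CPM to 52.3, 37.9, 51.1 and 52.7 CPM (−0.96 ± 0.21, adjusted p = 0.025), and the transcription factor Irf4 fell by 2.19 ± 0.54 (adjusted p = 0.039). Of 16 genes that lead to interferon production 1 rose and 2 fell, against the same shares of all genes. Ikbke, a kinase of IRF3 and IRF7, rose by 2.73 ± 0.47 (adjusted p = 0.0084), while the endosomal receptor of double-stranded RNA, Tlr3, fell by 1.97 ± 0.41 (adjusted p = 0.020) and Irf5 by 0.98 ± 0.25 (adjusted p = 0.043).

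Interferon-stimulated genes outside the 37 were also mostly not past the threshold. Of 61 tested, 0 were higher and 1 was lower (2.82% and 2.29% of all genes), with 4 and 8 at an unadjusted p under 0.05 (17.9% and 7.06% of all genes, limma). The one that fell was Ifi209, a member of the DNA-binding PYHIN family (−1.44 ± 0.31, adjusted p = 0.024). Of 12 further genes listed as interferon-inducible GTPases 0 were called in either direction (limma), with 1 higher and 4 lower at an unadjusted p under 0.05. Their log2 change was above 0 in 4 and below 0 in 8, with a median of −0.49. The 7 listed GTPases had a median of 0.44, so the further ones did not go with them. Without PAM3CSK4 replicate 4, Ifngr1, Tyk2, Irf4, Socs3, Ikbke, Tlr3 and Ifi209 still passed, Irf4 with a smaller change of −1.52 (adjusted p = 0.0049), and Irf5 did not (adjusted p = 0.058). Socs3 and Ikbke passed with any 1 library left out. The other 6 did not pass without vehicle replicate 2 (adjusted p from 0.063 for Tlr3 to 0.12 for Irf5), nor without at least 1 more library each.

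Macrophages and monocytes at baseline differed in 8 of the 37 members. Higher in macrophages were 5 members (12.8% of the 12188 genes tested were called higher) and lower were 3 (7.42% of all genes). The log2 change of macrophages minus monocytes was above 0 in 16 and below 0 in 21, with a median of −0.16 beside 0.10 for all genes. Without monocyte replicate 1 this direction turned, with 22 above 0, 15 below and a median of 0.11 (0.15 for all genes), and without monocyte replicate 2 the median was −0.38. In 6 members all macrophage libraries lay above all monocyte libraries (20.4% of all genes), and in 4 all lay below (13.8%).

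The GTPase class had the highest median, 0.87, with 6 of 7 members above 0, 2 called higher and 0 lower (12.8% and 7.42% of all genes). Gbp7 (chromosome 3, 142530336 to 142550152) was at 16.7, 30.0 and 19.0 CPM in monocytes and 56.2, 41.4 and 56.4 CPM in macrophages, with a log2 change of 1.22 ± 0.28 (SE, adjusted p = 0.0084). Igtp was at 13.1, 8.31 and 8.12 CPM and 27.9, 21.7 and 18 CPM (1.13 ± 0.29, adjusted p = 0.017). In both genes every macrophage library lay above every monocyte library. Gbp2 (12.7, 12.7 and 7.41 against 26.9, 13.7 and 25.9 CPM) had 0.94 ± 0.33 (adjusted p = 0.068) and Ifi47 (29.4, 19.3 and 16 against 58.7, 35.1 and 28.7 CPM) 0.87 ± 0.32 (adjusted p = 0.080). Gbp3 went against its neighbours in the cluster at 31.7, 35.1 and 22.7 CPM in monocytes and 13.6, 9.45 and 23.5 CPM in macrophages (−0.97 ± 0.33, adjusted p = 0.061). Irgm1 (39.9, 31.9 and 24.2 against 45.4, 35.0 and 28.1 CPM) and Gbp5 (8.47, 11.3 and 6.79 against 18.6, 11.3 and 13.6 CPM) had changes of 0.17 ± 0.28 and 0.65 ± 0.30.

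The antiviral class had a median of −0.63, with 5 members above 0 and 10 below. Of its 15 members 1 was called higher and 3 lower (12.8% and 7.42% of all genes). Cmpk2 (chromosome 12, 26469215 to 26479838) was at 33.1, 32.4 and 35.0 CPM in monocytes and 15.1, 7.91 and 15.9 CPM in macrophages. Its monocyte values were nearly equal, and all macrophage values were under them. The change of Cmpk2 was −1.36 ± 0.29 (SE, adjusted p = 0.0061). Mx1 (35.4, 26.6 and 31.1 against 8.93, 22.5 and 6.36 CPM) had −1.41 ± 0.38 (adjusted p = 0.021) and Mx2 (chromosome 16, 97536081 to 97560902; 8.30, 3.65 and 6.87 against 3.24, 2.59 and 1.17 CPM) −1.12 ± 0.37 (adjusted p = 0.049). Macrophages were lower in every library in both, with Mx1 of macrophage replicate 2 the nearest to the monocytes. Isg20 (chromosome 7, 78913424 to 78920397) was higher, at 3.75, 1.14 and 2.48 CPM in monocytes and 7.78, 5.85 and 20.8 CPM in macrophages (1.74 ± 0.44, adjusted p = 0.015).

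The other antiviral genes had wide spreads in monocytes. Oas1a was at 35.1, 5.66 and 14.6 CPM there and 10.7, 7.15 and 7.20 CPM in macrophages, Oas2 at 27.7, 3.18 and 14.3 CPM and 7.69, 6.41 and 4.11 CPM, and Oas3 at 41.4, 10.4 and 21.1 CPM and 16.5, 8.50 and 11.1 CPM. Monocyte replicate 1 was high and replicate 2 low in each. Ifit3 (14.3, 3.31 and 5.18 against 4.58, 2.79 and 4.16 CPM), Rsad2 (15.7, 2.16 and 4.35 against 11.4, 12.6 and 5.87 CPM) and Isg15 (3.64, 0.0001 and 1.67 against 1.97, 1.09 and 1.26 CPM) had the same order among monocytes. Ifit3b (4.71, 1.30 and 1.55 against 1.16, 1.13 and 0.823 CPM) was the fourth member with all macrophage values below all monocyte values, and did not pass (−0.67 ± 0.37, adjusted p = 0.25). Ifit1 was at 4.43, 1.24 and 1.97 CPM and 3.72, 3.55 and 3.91 CPM. Oas1a, Oas2 and Oas3 had changes of −0.75, −0.83 and −0.80, and Oasl1, Oasl2 and Ifit2 of 0.11, −0.30 and −0.00, none past the threshold.

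Over all 37 members monocyte replicate 1 was the highest monocyte library in 31 and replicate 2 the lowest in 26. Of the 15 antiviral genes replicate 1 was highest in 13 and replicate 2 lowest in 14, whereas of the 7 GTPases replicate 1 was highest in 3 and replicate 2 in 4. The median difference of the antiviral genes from the monocyte mean was 0.82, −0.78 and 0.01 on the log2 scale in replicates 1 to 3, and that of all genes 0.09, −0.03 and −0.06. Leaving out monocyte replicate 1 moved the antiviral median from −0.63 to −0.11, and leaving out replicate 2 moved it to −0.91. Conventional dendritic cell markers summed to 3930, 874 and 359 CPM in monocyte replicates 1 to 3 (macrophages 3280, 4950 and 2510 CPM). The monocyte markers summed to 8010, 8780 and 9150 CPM there. Among these, Ace (266, 25.7 and 56.3 CPM) and Nr4a1 (102, 7.97 and 28.1 CPM) were highest in replicate 1. Ly6c2 (319, 555 and 611 CPM) and Fn1 (4070, 4470 and 5590 CPM) were lowest in it. The part of either marker list in this spread was not tested.

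Of the sensors, Ddx58 (chromosome 4, 40203777 to 40239826) was higher in macrophages, at 24.8, 5.65 and 12.0 CPM in monocytes and 60.8, 33.0 and 60.0 CPM in macrophages (1.95 ± 0.43, adjusted p = 0.0071). Ifih1 (31.9, 20 and 20.9 against 23.8, 20.2 and 18.8 CPM) and Zbp1 (27.0, 9.53 and 16.5 against 9.51, 6.40 and 14.5 CPM) did not pass. Ifi44 (chromosome 3, 151730923 to 151749960), a cytoplasmic interferon-induced protein, was at 0.619, 0.321 and 0.0751 CPM in monocytes and 9.30, 4.61 and 4.18 CPM in macrophages. Every macrophage library of Ifi44 and Ddx58 lay above every monocyte library, and the change of Ifi44 was 2.34 ± 0.34 (adjusted p = 4.9e-04). No signalling gene passed. Irf7 (43.5, 7.55 and 23.7 against 16.5, 22.6 and 11.7 CPM), Stat2 (72.9, 41.2 and 55.5 against 40.1, 44.9 and 30.0 CPM), Irf1 (67.9, 27.7 and 39.7 against 75.8, 58.7 and 50.5 CPM) and Usp18 (12.7, 4.75 and 5.89 against 6.67, 6.10 and 2.39 CPM) had changes of −0.28, −0.53, 0.52 and −0.52, and Irf9 of −0.27. Parp14 (135, 79.1 and 90.0 against 103, 66.7 and 72.2 CPM), Xaf1 (7.18, 4.53 and 6.17 against 4.67, 5.46 and 4.54 CPM), Rtp4, Ifi35, Trim30a and Phf11d had changes between −0.32 and 0.89, and 0 of these 6 passed.

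Cmpk2 and Ifi44 held their calls in all alternatives run for them. Without macrophage replicate 1 the calls were down to Ifi44 (2.03, adjusted p = 0.0048) and Cmpk2 (−1.49, adjusted p = 0.021), while Gbp7 (1.15, adjusted p = 0.052), Ddx58 (1.80, adjusted p = 0.064), Isg20 (1.90, adjusted p = 0.054), Igtp (0.97, adjusted p = 0.089), Mx2 (−1.32, adjusted p = 0.070) and Mx1 (−1.28, adjusted p = 0.12) were not past the threshold. That replicate had 33.4 steps per CPM, the fewest of the 3, and the highest macrophage value of 24 of the 37 members. Of the T and NK cell markers 12 of 13 tested were higher in macrophages, as were 9 of 10 B and plasma cell markers, and Gzmb was at the lowest value in all monocyte libraries. All 10 erythroid markers were higher (summed 251, 240 and 971 CPM against 11.6 to 81.9 CPM in monocytes), and of 12 neutrophil markers tested 8 were higher and 4 lower (4020, 1670 and 1900 CPM against 2380 to 3410 CPM). Of the 14 conventional dendritic cell markers 3 were higher and 2 lower. For each of these marker lists the shares of all genes were 12.8% higher and 7.42% lower. The 2 lower ones were Cd209a (−4.21, adjusted p = 2.6e-04) and Clec10a (−3.31, adjusted p = 2.3e-04). Xcr1, which marks the cross-presenting subset, was at 73.8, 148 and 29.1 CPM in macrophages and 0.0885, 1.10 and 0.188 CPM in monocytes (5.64 ± 0.50, adjusted p = 2.5e-05), and Clec9a (2.27, adjusted p = 0.013) and Zbtb46 (1.82, adjusted p = 0.024) were higher too. Whether these cells carried part of the differences in the 37 genes was not tested.

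**Figure D4:**
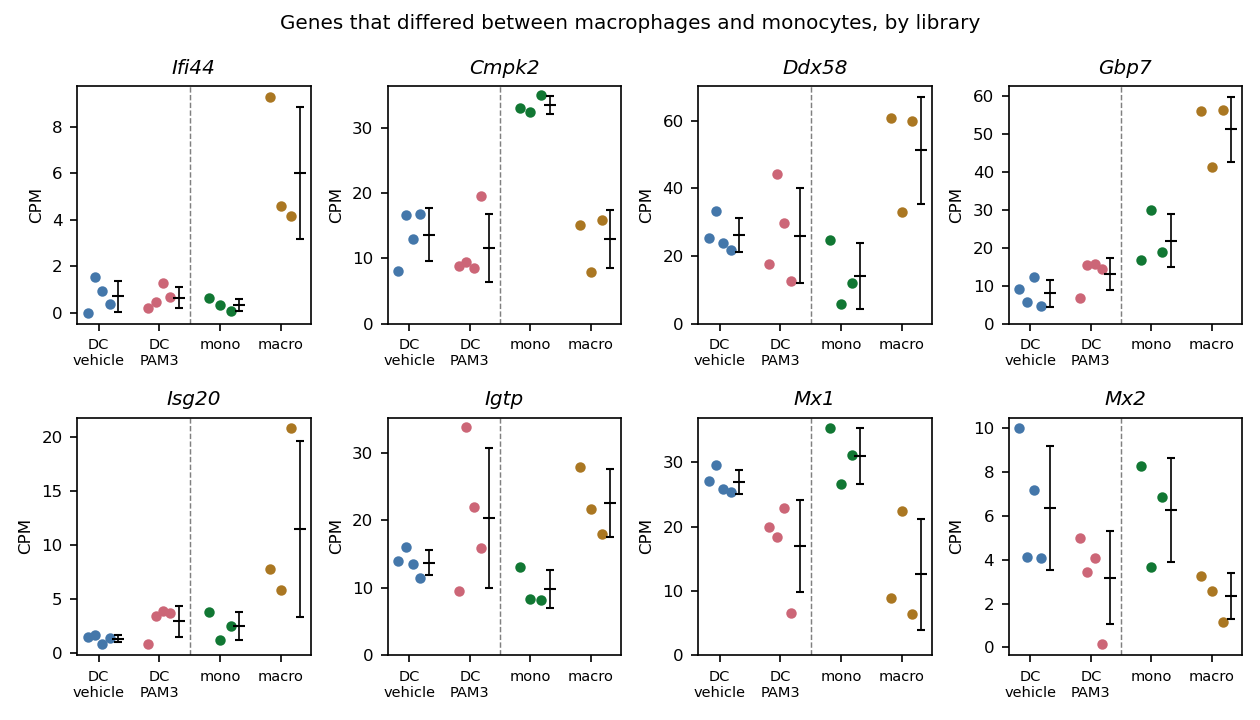
CPM in every library (points) with the group mean and SD (bars) for the 8 members called between macrophages and monocytes, ordered by p, with the dendritic cell groups left of the dashed line, whose values come from another table and were not tested against the right. Ifi44 is under 2 CPM in every group except macrophages (4.18 to 9.30 CPM), and Cmpk2 in monocytes (32.4 to 35.0 CPM) lies above every other library.

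Calls among the genes around the members varied by list at baseline. Of 6 receptor genes 1 was higher and 3 were lower in macrophages (12.8% and 7.42% of all genes). The 15 signalling genes outside the 37 gave 1 higher and 1 lower. The receptor genes Ifngr2 (125, 102 and 106 CPM in monocytes against 25, 24.5 and 29.1 CPM in macrophages, −2.04 ± 0.23, adjusted p = 8.6e-05), Ifnar2 (−1.25 ± 0.25, adjusted p = 0.0037) and Ifnar1 (−0.72 ± 0.23, adjusted p = 0.046) were lower in macrophages. Ifnlr1, the receptor chain for interferon lambda, was higher (1.15 ± 0.29, adjusted p = 0.014), and Ifngr1 (−0.70 ± 0.28, adjusted p = 0.11) and Il10rb (−0.38 ± 0.26) did not pass. Of 15 signalling genes outside the 37, Socs1, an inhibitor of interferon receptors, was higher (1.89 ± 0.37, adjusted p = 0.0035) and the phosphatase gene Ptpn6 lower (−1.36 ± 0.30, adjusted p = 0.0067). Ifng was at the lowest value in all monocyte libraries and at 2.09, 2.70 and 0.612 CPM in macrophages, and Ifnk was lower in macrophages (−0.94 ± 0.30, adjusted p = 0.042).

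Further GTPases went with the listed ones. Of 14 tested, 9 were higher and 1 lower in macrophages, where 12.8% and 7.42% of all genes were. Tgtp1 was at 0.459, 0.0001 and 0.0584 CPM in monocytes and 36.0, 22.0 and 14.6 CPM in macrophages (4.36 ± 0.36, adjusted p = 2.0e-05), though its near-identical copy Tgtp2 (2.49 ± 0.44) and a gene that overlaps it on the same strand make the split of its reads uncertain. Iigp1 (3.01 ± 0.28), Gbp4 (2.99 ± 0.31), Gbp6 (2.97 ± 0.34), Gbp8 (2.45 ± 0.43) and Gm4951 (1.78 ± 0.29) were also higher, as were F830016B08Rik and Ifi208, a PYHIN gene held in that list, and 9930111J21Rik1 was lower (−0.92 ± 0.25). In dendritic cells the same list gave no call and had a median log2 change of −0.49.

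Of 62 other interferon-stimulated genes tested at baseline, 7 were higher and 11 lower in macrophages (12.8% and 7.42% of all genes). Without monocyte replicate 1 they counted 14 higher and 8 lower, without monocyte replicate 2 6 and 14, and without monocyte replicate 3 4 and 7. By p the first 8 were Slfn1 (−3.29 ± 0.32), Ifi204 (−2.98 ± 0.32), the chemokine gene Cxcl9 (3.09 ± 0.44), the thiol reductase gene Ifi30 (−2.09 ± 0.30), Ifi207 (−1.71 ± 0.28), Slfn2 (−1.55 ± 0.28), Ifi205 (2.83 ± 0.54) and the nucleotide hydrolase gene Samhd1 (−1.27 ± 0.26). The PYHIN genes among them went both ways. Of 16 genes that lead to interferon production 1 was higher, Tlr3 (0.884, 0.581 and 0.356 against 58.0, 127 and 27.5 CPM, 5.24 ± 0.45, adjusted p = 2.4e-05), and 7 were lower, namely Ticam2 (−2.17), Irf5 (−1.41), Unc93b1 (−1.17), Tlr9 (−1.17), Ikbke (−1.08), Tlr7 (−1.07) and Tmem173 (−0.93).

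With any 1 of the 6 baseline libraries left out, Ifngr2, Ifnar2, Socs1, Ptpn6, Tlr3, Ticam2, the 8 genes from Slfn1 to Samhd1 and the GTPases Tgtp1, Tgtp2, Iigp1, Gbp4, Gbp6, Gbp8 and Gm4951 passed each time. Ifnk did not pass in any of the 6 (adjusted p 0.059 to 0.16), Ifnar1 and Ikbke in 5 each (highest adjusted p 0.20 and 0.22), Tlr9 in 4 (0.16), Tlr7, Tmem173, Ifi208 and 9930111J21Rik1 in 3 each (0.11, 0.081, 0.10 and 0.091), and Ifnlr1, Unc93b1 and F830016B08Rik in 2 each (0.092, 0.064 and 0.060). Irf5 did not pass in 1, without macrophage replicate 1 (adjusted p = 0.058). Without macrophage replicate 1 the further GTPases counted 7 higher and 0 lower, the other interferon-stimulated genes 4 higher and 8 lower, and the genes that lead to interferon production 1 higher and 2 lower. Without macrophage replicate 2 the last also counted 1 and 2, and without monocyte replicate 1 they counted 1 and 4.

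Set beside each other across the 2 separately made tables, the groups ordered differently by gene, with no test. Mean Gbp7 was 7.96 ± 3.51 CPM (SD, n = 4) in vehicle dendritic cells, 21.9 ± 7.11 CPM (n = 3) in monocytes and 51.3 ± 8.58 CPM (n = 3) in macrophages, and in Gbp3 monocytes were highest (29.8 ± 6.41 CPM) and vehicle dendritic cells lowest (6.53 ± 1.57 CPM). Mx1 was 26.9 ± 1.89 CPM in vehicle dendritic cells and 31.1 ± 4.42 CPM in monocytes, neighbours within their spread, and 12.6 ± 8.67 CPM in macrophages. Ifit3 was highest in vehicle dendritic cells (16.5 ± 1.71 CPM), and its 7.58 ± 5.85 CPM in monocytes and 3.84 ± 0.938 CPM in macrophages did not differ beyond their spread. Stat2 had the same order, at 78.8 ± 8.82, 56.5 ± 15.9 and 38.4 ± 7.61 CPM. Per kilobase of exon the highest member was Trim30a (15.8 CPM per kilobase) in monocytes and Ifi47 (16.5) in macrophages.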

How the data were processed

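The 2 tables were deposited by the authors as FPKM, but their values behave as CPM. Less 0.0001, which appears added to every value, 66.3% to 69.1% of low values (up to 50 steps) of dendritic cell libraries and 87.9% to 90.8% of those of monocytes and macrophages lay within 0.05 of a whole multiple of a step that was the same for genes of any length (at most 11.9% with a step 7% longer). Of all values 45.5% to 83.8% came out whole, too few to recover counts. Per the submitters' processing notes the build was mm10 and the tools STAR 2.5.3a and Partek, in roles not given. The annotation, the strand setting and the filter are not stated, so near-identical genes (Ifit3 and Ifit3b, Oas1a and its copies, Trim30 and Gbp genes) and overlapping genes are uncertain. The listed genes summed to 350368 to 578711 CPM per library. The tables hold 24980 and 17118 genes, and 0 pairs of libraries were identical. A further 3 columns of the second table, named for dendritic cells, match no single sample by name and were not used, so dendritic cells were compared with monocytes and macrophages by level only.

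Each comparison was fitted inside its own table by limma 3.58.1 (R 4.3.3, lmFit, eBayes with trend) to log2(CPM + 1). Tests were two-sided, p-values were adjusted by Benjamini-Hochberg across every gene tested, and 0.05 was the threshold. Genes were tested if they reached 1 CPM in 4 (dendritic cells) or 3 libraries. On simulated data this recovered 44% of 1-unit and 86% of 2-unit log2 changes in dendritic cells (11244 genes) and 14% and 85% at baseline (11952 genes), with 4.4% and 4.8% false calls. The changed genes there had a mean log2(CPM + 1) above 3, and the noise was independent between genes. The shares therefore do not describe lower members such as Isg15 and Ifit1, nor a spread that members share. Levels were divided by GENCODE M21 exon length only to compare genes. Promoter sequences are from RefSeq (GRCm38.p6). The members, classes and lists were chosen with earlier results of these data known. Values in every library are given for members past the threshold or with an unadjusted p under 0.05 in either comparison, the highest and lowest of each class and 12 fixed members, and of the lists for receptors, Ifnb1, Ifng and up to 8 genes past the threshold. A further gene of the lists is not reported here. Alternatives were other pseudocounts, filters and scalings, a replicate block and each library left out.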

Additional observations from a re-analysis of the deposited data

Results flagged for a closer look

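Each of the 37 genes was looked at in the vehicle and in the PAM3CSK4 dendritic cell libraries, which makes 74 groups of 4, for a library whose gap to the nearest other exceeded Dixon's 95% critical value. There were 4 such values, and chance gives about 1 in 20 groups. Ifit3b was lowest in vehicle replicate 3 (2.84 CPM). Isg20 (0.788 CPM) and Gbp7 (6.82 CPM) were lowest in PAM3CSK4 replicate 1. Cmpk2 was highest in PAM3CSK4 replicate 4 (19.5 CPM), while its neighbour Rsad2 was not set apart there. Groups of 3 were not looked at in this way.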

How the results depend on the processing

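In dendritic cells 582 genes were called, 166 with no filter on low values, 976 with the replicate block and 184 to 1008 with 1 library left out, the lowest without vehicle replicate 2 and the highest without PAM3CSK4 replicate 1. Same-numbered libraries had correlations of deviations of 0.03, 0.29, −0.12 and 0.30 in dendritic cells, and 0.18, 0.08 and 0.12 at baseline. Those of different number ran from −0.38 to 0.2 in dendritic cells and from −0.12 to 0.02 at baseline. The same-numbered values were thus the highest at baseline. Whether the numbers mark pairs is not known, so the block stays an alternative. Of the members 0 were called higher or lower. With the replicate block 1 was higher (Gbp5, adjusted p = 0.045) and 1 lower (Oas3, adjusted p = 0.043). Leaving out 1 library gave 0 to 2 higher (2 without PAM3CSK4 replicate 1, and Gbp5 without replicate 4) and 0 to 1 lower (Ifit3 without PAM3CSK4 replicate 2, adjusted p = 0.035, or Oas3 without replicate 4). Median centring and quantile normalization each gave 1 lower (Oas3, adjusted p = 0.037). At baseline the 5 members called higher became 8 on a common total and 1 to 8 with 1 library left out (8 without monocyte replicate 1, 1 without macrophage replicate 1). The 3 called lower became 1 with no filter, 1 on a common total and 1 to 6 with 1 library left out (6 without monocyte replicate 2). The cause of these moves was not tested. No called direction reversed, and 20 of 73 gene comparisons had another sign in at least 1 alternative. At baseline the sign of Isg15, Oasl1, Ifit1, Ifi35, Trim30a and Ifit2 depended on the scaling. The share of rises among all calls was 55.2% in dendritic cells and 41.4%, 29.9% and 35.1% on a common total, with median centring and with quantile normalization (median change of all genes 0.20, then 0.07, −0.02 and 0.02), and 63.4% at baseline, then 72.9%, 51.3% and 44.8%. Mx2 was called in 4 of its 13 baseline alternatives and Mx1 in 9 of 14. Members under 1 CPM rest on few reads, and their changes are understated.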
